A study of Homo sapiens with 4 samples.

Results

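The genes described here are heat shock proteins and the cytosolic co-chaperones that work with them, together with the heat shock transcription factors. A list of 32 human symbols was taken, and a symbol entered when the platform annotation gave it at least 1 probe set of its own, and its brightest probe set on average then stood for it. This left 27 of the 32 symbols, among 19775 genes with a probe set of their own on the array. HSPA1A, HSPA1B and HSPA8 appeared only on probe sets annotated to several symbols at once, and AHSA1 and HSF2 were not analysed here. All 27 genes lay above the level filter, which removed probe sets with a mean under 6.06 (log2 level, the 30 percentile).

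The cells were MKN45, an established human gastric epithelial line from an adenocarcinoma. Treated wells received medium with 10 µg/ml lipopolysaccharide (LPS) from Helicobacter pylori, a stomach bacterium, and untreated wells received fresh medium, so both groups had their medium replaced 8 h before RNA was taken. Each group had 2 Affymetrix expression arrays, and the series text speaks of 2 independent experiments. Spread was therefore measured between 2 arrays of 1 cell line, and with bulk RNA fewer cells of a type and less RNA per cell cannot be told apart. All values are log2 levels of probe sets, differences are LPS minus untreated, and intervals are 95% intervals from limma.

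Array medians were 7.034 and 7.030 on the LPS arrays, against 7.004 and 7.032 on the untreated arrays. All 8 epithelial markers were above the level filter (EPCAM 13.83 with LPS, 13.84 untreated). So were 3 of the 4 leukocyte markers with a probe set of their own and 5 of the 6 fibroblast and endothelial markers. The leukocyte marker PTPRC and the endothelial marker CDH5 were under it. Whether the levels of these markers above the filter are transcript or background signal was not tested. Of the other leukocyte markers, LYZ (12.60 with LPS) was lower (-0.15) and CD53 (8.71 with LPS) higher (0.33) at an unadjusted limma p under 0.05. CD3E had a mean of 7.90 in both groups. Summed levels of the 6 fibroblast and endothelial markers were 43.3 to 43.8 on the LPS arrays and 42.4 to 43.6 on the untreated arrays. Poly-A spike-ins, bacterial RNAs added before labelling, averaged 7.98 and 7.92 on the LPS arrays, against 8.60 and 8.25 on the untreated arrays, and their part in the small differences below was not tested. In the same fit the chemokine CXCL1 was 3.98-fold higher with LPS, and 4 of 16252 genes passed the threshold.

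Heat shock proteins bind unfolded stretches of other proteins and let them fold, move or be degraded. HSP70 proteins cycle between loose and tight binding under the control of J-domain proteins, which load clients and start ATP hydrolysis, and of nucleotide exchange factors, which end the cycle. HSP90 proteins receive clients such as kinases and steroid receptors from HSP70 through the bridging protein STIP1. When unfolded protein accumulates, heat shock factor 1 is released from chaperones, forms trimers and binds heat shock elements, which are repeats of the letters GAA in alternating orientation upstream of chaperone genes.

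No heat shock gene or co-chaperone passed an adjusted p under 0.05 over all genes in limma (0 of 27), beside 0.0246% of all genes. The median difference over the 27 genes was 0.01, against 0.0005 over all 19775 genes. Differences ran from -0.20 for HSPA13 to 0.22 for DNAJB1, with 14 of 27 above 0, beside 48.2% of all genes. At an unadjusted p under 0.05, 2 of 27 were higher, HSP90AB1 and DNAJB1, beside 3.72% of all genes, and 0 were lower, beside 7.91%. Both LPS arrays lay above both untreated arrays in 3 genes (HSP90AB1, DNAJB1 and HSPA1L), beside 19.7% of all genes. Both lay below in 2 genes (DNAJB6 and DNAJC7), beside 25.7% of all genes.

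The differences were small beside the spread between arrays of 1 group. Over the 27 genes the median absolute difference between group means was 0.04, while the median absolute gap between single arrays was 0.08 within the LPS pair and 0.06 within the untreated pair. A gap between single arrays varies more than a difference between means of 2, so these values are given for scale. Intervals of 25 of the 27 genes included 0. The farther bound of the interval stayed under 1.5-fold in either direction for all 27 genes. Its median was 1.17-fold and the widest was 1.38-fold, for HSPA13. These are bounds on the signal of 1 probe set a gene, at mean levels of 6.63 to 14.25, where the highest of all genes was 14.94. How signal follows transcript near either end of the scale was not tested. HSPB8, HSPA6, DNAJB4, HSPA1L and HSPA2 had the lowest mean levels of the list.

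**Figure D1:**
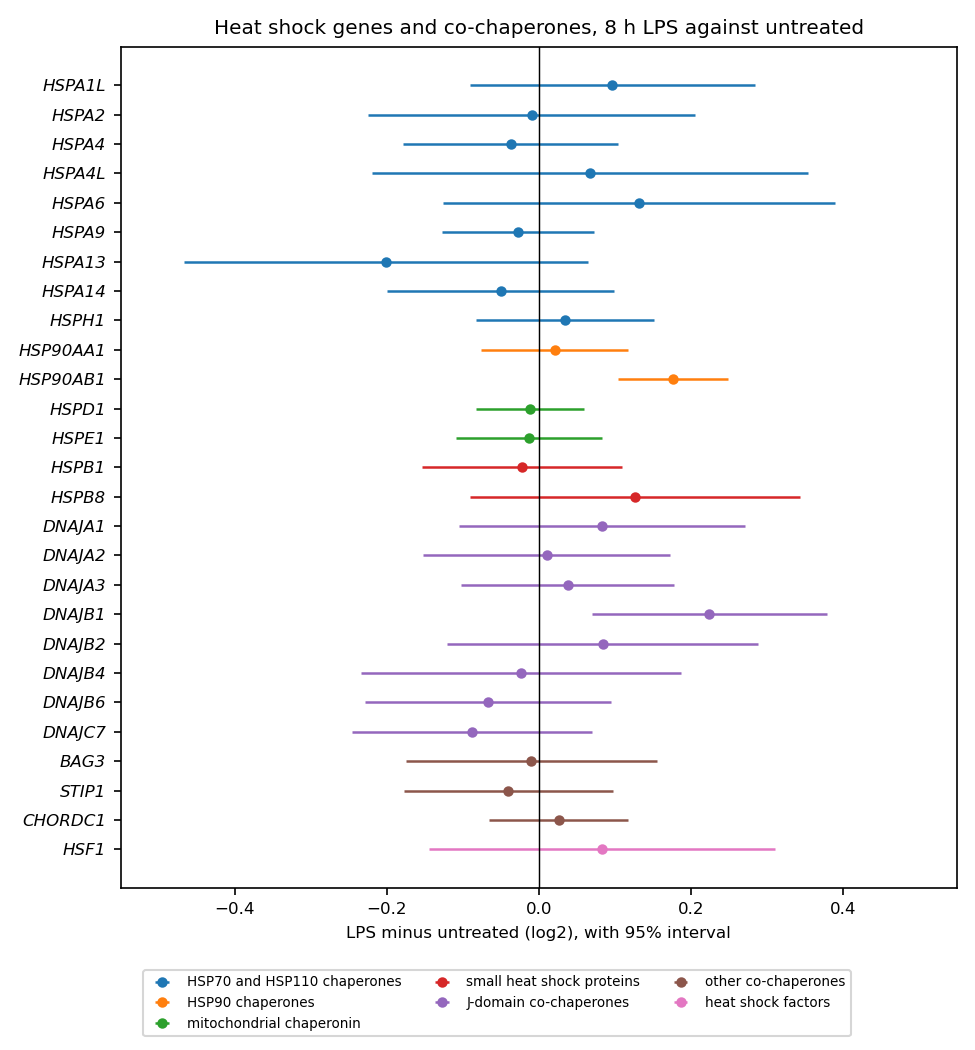
Difference between LPS-treated and untreated cells (log2, x axis) for each of the 27 genes, coloured by role. Points are differences of 2-array means and lines are 95% intervals from limma; the intervals of HSP90AB1 and DNAJB1 are the only ones that leave out 0, and neither gene passed the adjusted threshold.

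The HSP90 proteins of the cytosol are HSP90AB1, the constitutive beta form, and HSP90AA1, the alpha form that responds more to stress. HSP90AB1 had 13.93 and 13.95 on the LPS arrays, against 13.75 and 13.78 on the untreated arrays. The groups did not overlap, and arrays of 1 group lay close together. Its mean was 13.94 ± 0.02 with LPS and 13.77 ± 0.02 in untreated cells (SD, n = 2 each), a difference of 0.18 (interval 0.10 to 0.25), or 1.13-fold. With an unadjusted limma p of 0.00067 it had the smallest p of the 27 genes. It did not pass over all genes (limma adjusted p = 0.257).

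Other probe sets of HSP90AB1 pointed the same way. The second had 13.44 and 13.34 on the LPS arrays, against 13.19 and 13.23 on the untreated arrays, a difference of 0.18. The last had 13.23 and 12.80 with LPS, against 12.92 and 12.60 untreated. Its groups overlapped, with a difference of 0.26 inside a wide spread. The difference of the brightest probe set was 0.16 to 0.19 with 1 array left out. Over all 14 alternatives, of which one averages the probe sets of a gene, the value for HSP90AB1 was 0.16 to 0.20, with limma adjusted p-values of 0.0921 to 0.964.

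HSP90AA1 had 14.24 and 14.27 on the LPS arrays, against 14.18 and 14.29 on the untreated arrays. The LPS values lay inside the untreated range, with a difference of 0.02 (interval -0.08 to 0.12). Its other 3 probe sets differed by 0.08, -0.0005 and -0.07. Whether the differences of HSP90AB1 and HSP90AA1 themselves differ was not tested.

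The promoter of HSP90AB1 is shown because this gene had the smallest p of the 27 genes with a probe set of their own. RefSeq windows of 300 bases (250 before to 50 after an annotated start, build GRCh38.p14) were searched on both strands for neighbouring GAA units. The window of 1 of its 3 annotated starts, at chr6:44247693-44247992 on the plus strand, held the 3-unit letters TTCNNGAANNTTC at 2 places, which begin at positions -165 and -112 from the start and are in capitals here.
HSP90AB1: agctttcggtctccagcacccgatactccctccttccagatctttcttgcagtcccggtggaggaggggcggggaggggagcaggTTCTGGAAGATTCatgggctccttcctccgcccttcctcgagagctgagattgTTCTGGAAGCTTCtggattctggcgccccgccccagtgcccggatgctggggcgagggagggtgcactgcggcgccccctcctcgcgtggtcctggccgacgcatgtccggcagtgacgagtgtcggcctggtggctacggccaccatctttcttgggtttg

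J-domain proteins are the partners that deliver clients to HSP70. DNAJB1, the main stress-inducible J-domain protein of the human cytosol, had 10.88 and 10.99 on the LPS arrays, against 10.72 and 10.70 on the untreated arrays. The groups did not overlap. The difference was 0.22 (interval 0.07 to 0.38), or 1.17-fold, with an unadjusted limma p of 0.011 and an adjusted p of 0.333. Its second probe set had 9.75 and 9.51 with LPS, against 9.52 and 9.33 untreated, a difference of 0.20 with overlapping groups. With 1 array left out, the difference of DNAJB1 was 0.17 to 0.28.

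The DNAJB1 window at chr19:14518348-14518647 on the minus strand is given for comparison with that of HSP90AB1. It held 2 copies of the 2-unit letters GAANNTTC, in capitals, and no 3-unit match.
DNAJB1: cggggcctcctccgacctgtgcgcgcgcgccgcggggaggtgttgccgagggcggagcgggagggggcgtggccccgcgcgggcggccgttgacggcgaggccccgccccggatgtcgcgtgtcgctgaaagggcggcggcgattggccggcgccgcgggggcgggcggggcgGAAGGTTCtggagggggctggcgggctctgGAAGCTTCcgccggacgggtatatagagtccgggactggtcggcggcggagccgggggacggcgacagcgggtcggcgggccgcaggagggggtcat

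The other 7 J-domain members differed by -0.09 to 0.08. DNAJA1, a general HSP70 partner of the cytosol, had 12.20 and 12.06 with LPS, against 12.15 and 11.95 untreated, and the groups overlapped. DNAJA2, of the same class, differed by 0.01, and DNAJA3, its mitochondrial relative, by 0.04. DNAJB2, best known from neurons, differed by 0.08 and DNAJB4 by -0.02.

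Both members with all LPS arrays below all untreated arrays were J-domain proteins. DNAJC7, which binds HSP70 and HSP90 at once, had 10.41 and 10.51 with LPS, against 10.54 and 10.56 untreated, a difference of -0.09 (interval -0.25 to 0.07, limma adjusted p = 0.626). DNAJB6, which keeps aggregation-prone proteins soluble, had 10.18 and 10.14 with LPS, against 10.26 and 10.18 untreated. Its difference was -0.07 (interval -0.23 to 0.10). The LPS arrays missed overlap with the untreated arrays by less than the gap between the untreated arrays. On 2 further probe sets, annotated jointly to DNAJB6 and TMEM135, the groups overlapped, with differences of 0.03 and -0.02.

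**Figure D2:**
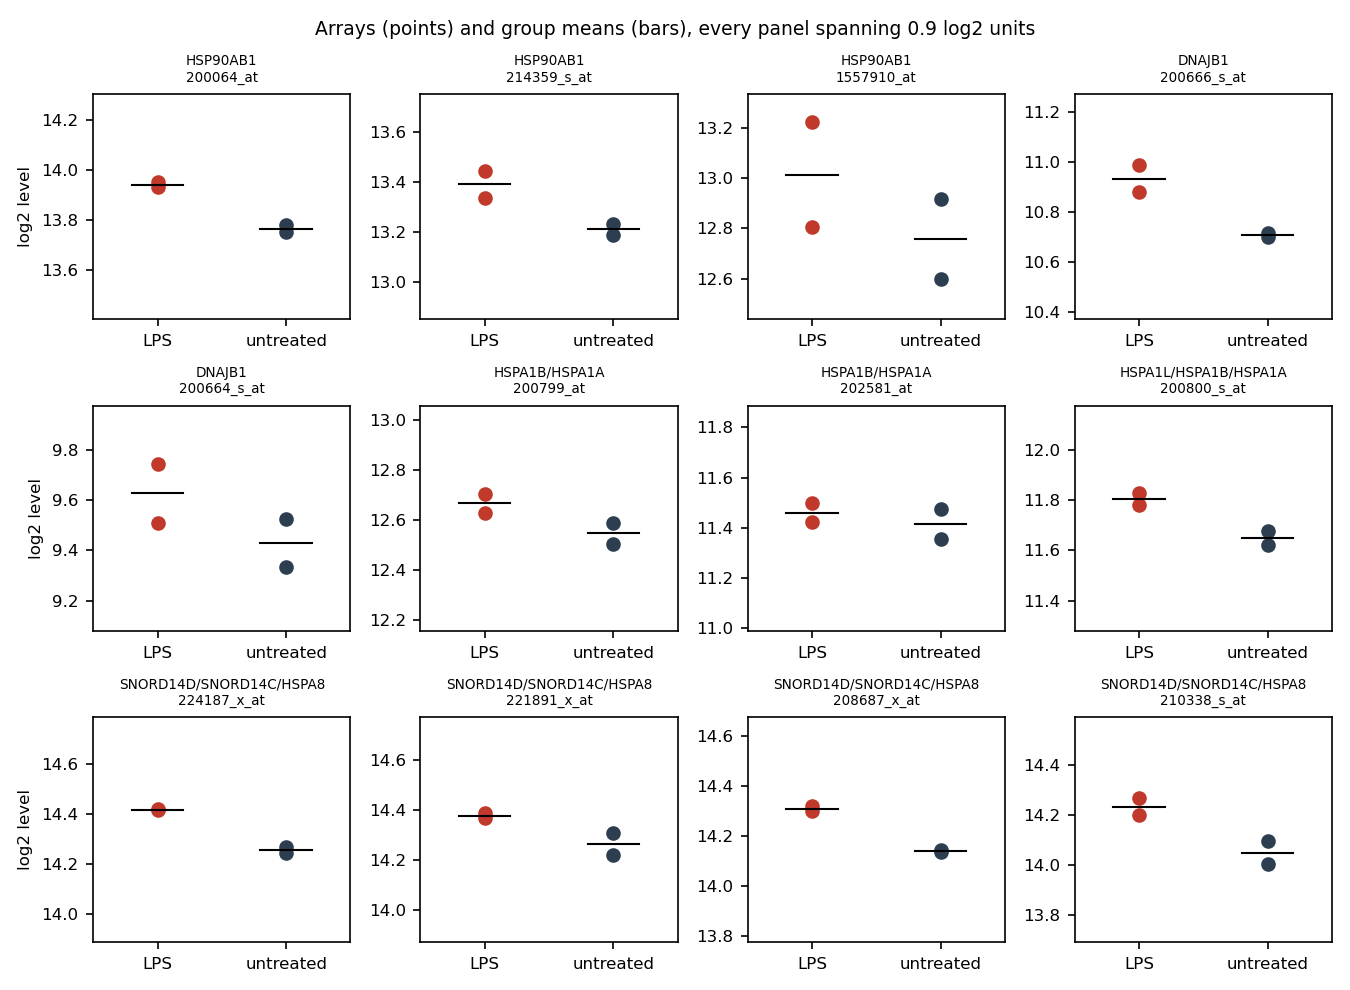
Levels of single arrays (log2, y axis) for the probe sets of HSP90AB1 and DNAJB1 and for those annotated jointly to HSPA1A and HSPA1B or to HSPA8 and 2 small nucleolar RNA genes. Points are arrays, bars are means of 2 arrays, and each panel spans 0.9 log2 units; the 4 panels with HSPA8 show the LPS arrays above the untreated arrays by 0.11 to 0.18 on average.

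Of the HSP70 and HSP110 proteins, 9 of 12 symbols had a probe set of their own, and differences ran from -0.20 to 0.13. HSPA6, an HSP70 that human cells make chiefly under stress, had 7.14 and 7.34 on the LPS arrays, against 7.001 and 7.22 on the untreated arrays. The groups overlapped. Its difference was 0.13 (interval -0.13 to 0.39, limma adjusted p = 0.655). A rise in the signal of this probe set by more than 1.31-fold lay outside the interval. These levels lay close to the array medians, and how far such signal follows the HSPA6 transcript was not tested, so the bound is not one on the transcript. The second HSPA6 probe set differed by -0.0015.

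HSPA13, a microsomal relative of HSP70, had the lowest difference of the list. It had 9.25 and 9.11 with LPS, against 9.53 and 9.23 untreated, and the groups overlapped because the untreated arrays lay far apart. The difference was -0.20 (interval -0.47 to 0.06), and -0.35 to -0.05 with 1 array left out. HSPA1L, an HSP70 best known from testis, had 7.42 and 7.52 with LPS, against 7.35 and 7.39 untreated. Its groups did not overlap, at a difference of 0.10 (interval -0.09 to 0.28), and its second probe set differed by 0.11.

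The nucleotide exchange factors of the HSP110 family lay near 0. HSPH1, which is strongly induced by heat, had 12.52 and 12.42 with LPS, against 12.43 and 12.43 untreated (difference 0.03, interval -0.08 to 0.15). HSPA4 differed by -0.04 and HSPA4L by 0.07. The remaining HSP70 members were HSPA2, a germ cell form (-0.0095), HSPA9, the mitochondrial HSP70 (-0.03), and HSPA14, which works at the ribosome (-0.05).

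HSPD1 and HSPE1 form the mitochondrial chaperonin, a closed chamber and its lid. HSPD1 had 14.23 and 14.23 with LPS, against 14.21 and 14.27 untreated, a difference of -0.01 (interval -0.08 to 0.06). HSPE1 had 13.10 and 13.03 with LPS, against 13.08 and 13.07 untreated, a difference of -0.01 (interval -0.11 to 0.08). Groups overlapped for both, and these intervals were among the narrowest of the list.

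Small heat shock proteins hold unfolded clients without using ATP. HSPB1, which is heat-induced and widely expressed in epithelia, had 11.24 and 11.28 with LPS, against 11.30 and 11.26 untreated (difference -0.02, interval -0.15 to 0.11). HSPB8, which hands clients to autophagy with BAG3, had 6.74 and 6.66 with LPS, against 6.49 and 6.66 untreated (difference 0.13, interval -0.09 to 0.34). Its mean lay little above the level filter.

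Further co-chaperones were close to 0 as well. BAG3, an exchange factor that heat shock factor 1 induces strongly, had 10.41 and 10.44 with LPS, against 10.49 and 10.38 untreated (difference -0.0098, interval -0.17 to 0.15). STIP1 differed by -0.04 (interval -0.18 to 0.10), and CHORDC1, an HSP90-binding protein, by 0.03 (interval -0.07 to 0.12). The regulator HSF1 had 9.28 and 9.52 with LPS, against 9.30 and 9.34 untreated. Its LPS arrays lay on either side of the untreated pair (difference 0.08, interval -0.14 to 0.31), and its second probe set differed by -0.0015.

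**Figure D3:**
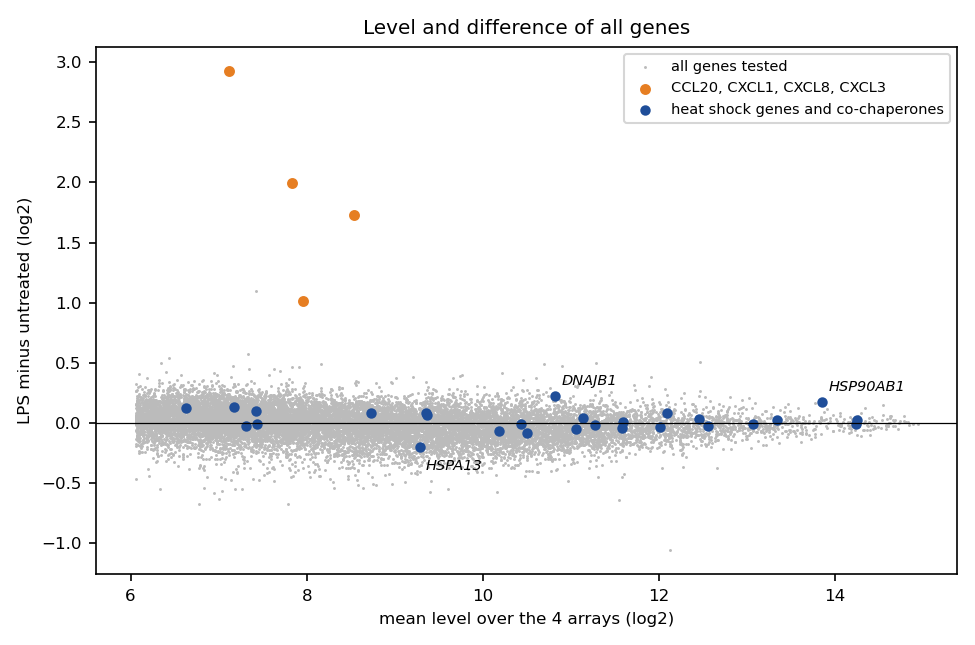
Mean level over the 4 arrays (log2, x axis) against the difference between LPS and untreated cells (log2, y axis) for 16252 genes in grey, with the 27 heat shock genes and co-chaperones in blue and 4 chemokine genes in orange. The blue points lie between -0.20 and 0.22, while the chemokines lie at 1.02 and above; the highest is CCL20, whose untreated mean of 5.65 was under the level filter.

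Bright genes as a whole lay slightly lower with LPS, and 18 of the 27 genes had a mean level of 10 or more. Among all 4112 genes at such levels the median difference was -0.04, and by unadjusted p under 0.05 152 of them were higher and 574 lower. The 18 members at these levels had a median of -0.01, and by the same p 2 were higher and 0 lower. The level scale moved this picture: quantile normalization gave a median of 0.04 over the 27 genes and 0.01 over all genes tested, and median centring gave -0.0041 and -0.02.

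The main HSP70 genes of the cytosol could be followed only on probe sets that the annotation gives to several symbols. By that annotation these values are assigned to no single gene. A set of 4 probe sets carried HSPA8, the constitutive HSP70, together with SNORD14C and SNORD14D, small nucleolar RNA genes. The one with the smallest p had 14.30 and 14.32 on the LPS arrays, against 14.14 and 14.14 on the untreated arrays. The LPS arrays lay above the untreated arrays on all 4, beside 19.1% of all 38229 probe sets tested, and differences were 0.11 to 0.18 (1.08-fold to 1.14-fold). Unadjusted limma p-values were 0.00042 to 0.015, and none passed (smallest limma adjusted p = 0.17). All 4 carry the same symbols and were read on the same arrays, so they are not independent measurements. Of them, 3 are of the _x_at type, and which transcripts they detect was not tested.

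Of the 10 probe sets that join a listed gene to other symbols, 6 had both LPS arrays above both untreated arrays. The same 6 were higher at an unadjusted limma p under 0.05, beside 3.69% of all probe sets tested, and 0 passed the adjusted threshold. They were those of HSPA8 and the HSPA1A probe sets that differed by 0.12 and 0.16. Probe sets with the same symbols are not independent measurements. Probe sets shared by HSPA1A and HSPA1B, the paired genes of stress-induced HSP70, differed by 0.05 to 0.16. One had 12.71 and 12.63 with LPS, against 12.51 and 12.59 untreated, a difference of 0.12 (limma adjusted p = 0.422). Another had 11.50 and 11.42 with LPS, against 11.35 and 11.48 untreated, a difference of 0.05 with overlapping groups. On the last, which also carries HSPA1L, the arrays had 11.83 and 11.78 with LPS, against 11.68 and 11.62 untreated, a difference of 0.16 (limma adjusted p = 0.353).

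The letters of heat shock elements were searched in the windows of all genes. Of the 30 symbols with a RefSeq window (HSF1 and HSPA14 had none), 8 held GAANNTTCNNGAA or its reverse complement TTCNNGAANNTTC, against 0.608% of 27305 genes with a window. Each such match also contains the 2-unit letters GAANNTTC and TTCNNGAA, which were present in 14 and 12 of the 30 symbols and in 8.21% and 9.46% of all genes. The stretches around the 3-unit matches are printed so that the spacing can be compared, with the matched letters in capitals and 5′ to 3′ along the gene's strand (build GRCh38.p14). Where neighbouring matches overlapped, their union is in capitals.
HSP90AB1 (chr6:44247770-44247798, plus strand): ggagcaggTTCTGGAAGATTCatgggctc
HSP90AB1 (chr6:44247823-44247851, plus strand): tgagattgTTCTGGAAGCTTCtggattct
HSP90AA1 (chr14:102087112-102087140, minus strand): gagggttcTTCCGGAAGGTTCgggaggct
HSPA6 (chr1:161524458-161524486, plus strand): cggaaaggTTCGCGAAAGTTCgcggcggc
HSPA8 (chr11:123062346-123062374, minus strand): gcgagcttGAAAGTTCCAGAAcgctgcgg
HSPA8 (chr11:123062171-123062199, minus strand): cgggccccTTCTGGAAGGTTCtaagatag
HSPD1 (chr2:197500060-197500090, minus strand): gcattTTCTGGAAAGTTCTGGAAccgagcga
DNAJA1 (chr9:33025268-33025296, plus strand): gccgggcgGAACTTTCCAGAAcgctcggt
DNAJB6 (chr7:157336865-157336893, plus strand): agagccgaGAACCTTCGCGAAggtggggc
CHORDC1 (chr11:90223079-90223117, minus strand): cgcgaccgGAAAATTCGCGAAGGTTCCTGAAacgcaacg

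Genes with these letters did not share 1 direction with LPS. The 7 with a probe set of their own differed by -0.07 (DNAJB6) to 0.18 (HSP90AB1), with a median of 0.03 and 5 above 0. The 18 measured genes whose windows lack the 3-unit letters differed by -0.20 to 0.22, with a median of -0.0097 and 8 above 0. HSPA6 and CHORDC1 hold 3-unit matches and had differences of 0.13 and 0.03, and DNAJB1, with the highest difference of the list, had only 2-unit letters. HSPA8, with 2 matches, is not among the 7, and its joint probe sets differed by 0.11 to 0.18. Only exact letters inside the windows were counted, so elements with a changed letter were missed. Whether the letters go with the differences was not tested. A match is a description of the letters and not of binding.

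Related chaperone genes were counted for context, from lists chosen with earlier results of these data known, and 0 members of any of them passed in limma over all genes. Among 17 other HSP90 co-chaperones the median difference was 0.02 (0.06 after quantile normalization). By unadjusted p under 0.05, 2 were lower, beside 7.91% of all genes, and 0 higher, beside 3.72%. The lower genes were TOMM70, the mitochondrial import receptor that docks HSP90 (-0.15), and NUDCD2 (-0.25). Another TOMM70 probe set differed by 0.0011. Among 10 other HSP70 co-chaperones the median was -0.07, against -0.01 after quantile normalization and -0.02 after cyclic loess. With 0 higher and 0 lower by that p, ST13 (-0.17) and BAG1 (-0.12) had the smallest p, and another ST13 probe set differed by 0.0078.

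The other J-domain proteins outside the endoplasmic reticulum had the largest share of genes lower by unadjusted p under 0.05 among the 7 chaperone lists. Of 24 tested, 5 were lower and 0 higher by this p, beside 7.91% of all genes lower, and the median was -0.09 (-0.05 after quantile normalization). Both LPS arrays lay below both untreated arrays in 11 of them, beside 25.7% of all genes. Their mean levels ran from 6.56 to 12.50, and among genes at 10 or more, 1579 of 4112 lay below in this way. DNAJC2, which works with HSPA14 at the ribosome, had 11.43 and 11.44 with LPS, against 11.70 and 11.58 untreated (difference -0.21, limma adjusted p = 0.333). DNAJC17 had 8.34 and 8.36 with LPS, against 8.61 and 8.57 untreated (difference -0.24, limma adjusted p = 0.346).

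Subunits of the TRiC chaperonin and of prefoldin, which fold actin and tubulin, had a median of 0.04 over 12 genes. An unadjusted p under 0.05 was reached by 0 of 12 in either direction, beside 3.72% of all genes higher and 7.91% lower. Both LPS arrays lay above both untreated arrays in 6 of the 12, beside 19.7% of all genes, and below in 1, beside 25.7%. The mean levels of these 12 were 10.52 to 14.19. Among the 4112 genes at a level of 10 or more, 590 lay above and 1579 below in this way. CCT5 differed by 0.06 and VBP1 by -0.11. Other heat shock response genes had a median of 0.01 over 11 genes (-0.0041 after median centring). Of these, 3 were higher by unadjusted p under 0.05, beside 3.72% of all genes, and 1 lower, beside 7.91%. SERPINH1, the collagen chaperone, had 11.91 and 11.92 with LPS, against 11.70 and 11.72 untreated (difference 0.21, limma adjusted p = 0.308). SQSTM1, an autophagy receptor, differed by 0.23 (limma adjusted p = 0.327), and its other probe sets above the filter by 0.12, 0.21 and -0.28.

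Relatives of HSP70 and HSP90, most of them in the endoplasmic reticulum or mitochondria, had a median of 0.02 over 12 genes (0.06 after quantile normalization). By unadjusted p under 0.05, 2 were higher, beside 3.72% of all genes, and 0 lower, beside 7.91%. The higher genes were HYOU1 (0.17) and HSPA5 (0.09), both chaperones of the endoplasmic reticulum. Other small heat shock proteins had a median of 0.18 over 6 genes, with 2 higher (beside 3.72% of all genes) and 0 lower (beside 7.91%), at mean levels of 6.65 to 7.63 near the filter. HSPB6 had 7.74 and 7.95 with LPS, against 7.34 and 7.47 untreated (difference 0.44, limma adjusted p = 0.303), and its second probe set differed by 0.12. HSPB3 differed by 0.22 (limma adjusted p = 0.405).

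**Figure D4:**
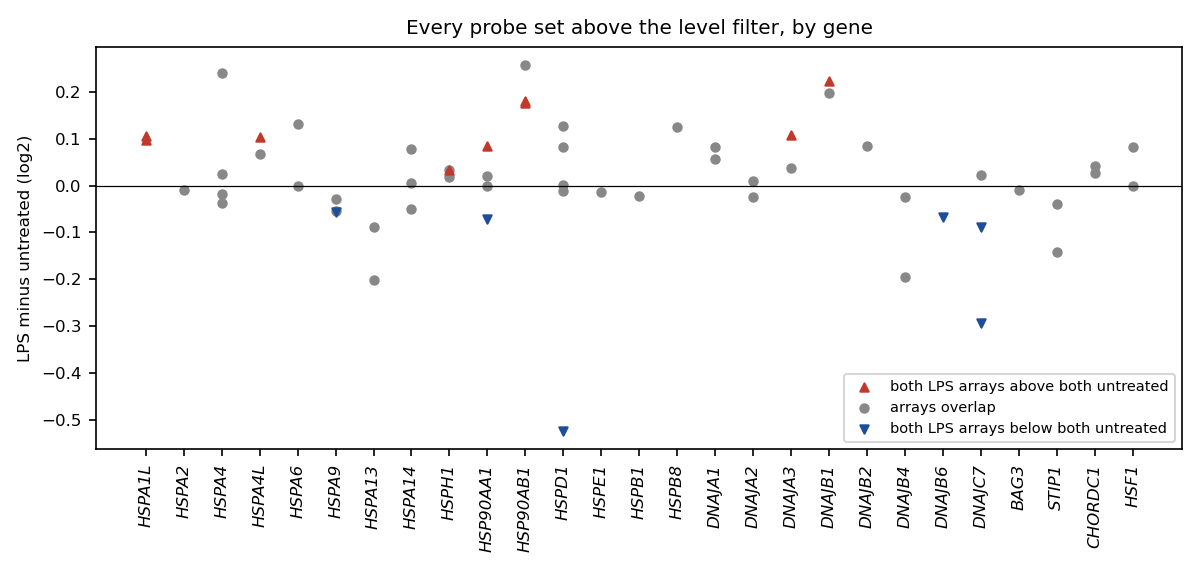
Difference between LPS and untreated cells (log2, y axis) for each of the 59 probe sets above the level filter, by gene (x axis). Upward triangles mark the 9 probe sets with both LPS arrays above both untreated arrays, downward triangles the 6 with both below, and grey points the rest; both triangles of HSP90AB1 lie at 0.18 and overlap.

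Probe sets of 1 gene did not always point the same way. Of 20 genes with more than 1 probe set above the filter, 12 had all of them on the same side of 0 and 8 had some on each side. Of all 59 such probe sets, 9 had both LPS arrays above both untreated arrays, beside 19.1% of all probe sets tested, and 6 had both below, beside 24.2%. The sign of the difference was the same in every alternative run for 8 of the 27 genes: HSP90AB1, DNAJB1, HSPA1L, HSPA6 and HSPB8 above 0, and HSPA13, DNAJB6 and DNAJC7 below 0. Much of this was fixed in advance. Runs that changed only the level filter, the trend, the block or the moderation left every difference as it was. For genes whose groups did not overlap, leaving out 1 array could not change the sign either. DNAJB1, DNAJB6 and HSPB8 entered 13 of the 14 alternatives. The differences of these 8 genes leave out probe sets annotated to several symbols, of which DNAJB6 has some on each side of 0.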

How the data were processed

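The authors deposited log2 levels of 54675 probe sets on 4 arrays, the log2 scale being judged from the values. MAS5 and RMA are both named, per the submitters' processing notes; their versions, and which of them made these values, are not given in the sources used here. The arrays already had nearly equal distributions, which would hide a shift of all transcripts 1 way. After removal of 62 control probe sets, those with a mean at or above the 30 percentile (6.06) were kept (38229). Groups came from the sample labels. Differences were tested in R 4.3.3 with limma 3.58.1 (lmFit, eBayes with trend, no replicate block), moderated over all probe sets kept. Each gene then took its probe set with the highest mean, and p-values were adjusted by Benjamini-Hochberg over 16252 genes, two-sided, at a threshold of 0.05. The procedure was also run on simulated data with independent noise for each probe set and array, and no result above rests on that run. For a single value 2 arrays against 2 allow no exact permutation p below 0.333. Annotation gave 41091 probe sets 1 symbol. All 27 members are named, and from each other list up to 4 genes past the threshold or the 2 with the smallest p. Members and lists were chosen with earlier results of these data known. Promoter sequences came from RefSeq, build GRCh38.p14.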

Additional observations from a re-analysis of the deposited data

How the results depend on the processing

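No heat shock gene or co-chaperone passed under any of the 14 alternatives run, with 0.0921 as the smallest limma adjusted p, for HSP90AB1. The number of genes called over the whole array was 4, against 7 with the replicate block and 10 with moderation over 1 probe set a gene. The last was chosen after seeing the data. It was 3 to 5 with 1 array left out. Same-numbered arrays deviated from their group means with a correlation of 0.10 across genes, over only 2 numbers, so the block was not taken as a pairing, and it changed the call of no heat shock gene (smallest limma adjusted p = 0.176). The median difference over the 27 genes was 0.01, and 0.06 over the 19 genes left without _x_at and _s_at probe sets. It fell below 0 with median centring (-0.0041) and without untreated replicate 2 (-0.02), and was -0.02 to 0.02 with 1 array left out. Those fits take the spread of the remaining single array from the other group. Filters at no level and at the 50 percentile, eBayes without trend, quantile normalization, cyclic loess and averaging a gene's probe sets also called 0 of these genes. The number of arrays limits the precision.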

Other observations

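Single probe sets of 3 listed genes stood apart from the brightest probe set of the same gene. One HSPD1 probe set had 7.64 and 7.42 on the LPS arrays, against 7.90 and 8.21 on the untreated arrays, a difference of -0.52 with a limma adjusted p of 0.254 over all probe sets, while the brightest, at 14.23 with LPS and 14.24 untreated, differed by -0.01. The faintest DNAJC7 probe set had 6.32 and 6.23 with LPS, against 6.65 and 6.48 untreated, a difference of -0.29, and another DNAJC7 probe set differed by 0.02. For HSPA4, 1 probe set had 10.07 and 9.59 with LPS, against 9.80 and 9.37 untreated, so the arrays numbered 1 were higher in both groups. What these probe sets detect was not tested.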
